A study of Mus musculus with 3 samples.

Results

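Retinal endothelial cells (ECs) of *Tspan12* knockout mice were set against those of wild-type (WT) mice over all genes, from 1 library of each genotype. The cells were chosen by a gate on their own counts. A cell needed at least 1000 unique molecular identifiers (UMIs, each standing for a captured transcript) and at most 15% of them from mitochondrial genes. The summed UMIs of *Pecam1*, *Cdh5*, *Egfl7*, *Esam*, *Tie1*, *Eng*, *Ecscr* and *Flt1* had to reach 10 per 10000, with 3 or more of these markers detected, and *C1qa*, *Cx3cr1* and *Csf1r* together had to stay under 5 per 10000. This gate selected 596 ECs of 9378 kept WT cells, a share of 6.36% (5.87 to 6.87%), and 401 ECs of 11585 kept *Tspan12* KO cells, a share of 3.46% (3.14 to 3.81%). These 997 cells came from the 33528 barcodes of the series.

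The libraries were made at postnatal day 6 with droplet 3′ chemistry, after cells of minced retinas had been enriched on magnetic beads against CD31, an EC protein, and CD11b, a myeloid protein. Bead enrichment sets the shares of cells, so the EC shares describe the libraries. The mice had the C57BL/6 background. The *Tspan12* KO mice carried a knockout allele for which no Cre driver is named, and which exons were deleted is not given in the sources used here. Each library pooled the retinas of several mice of a litter, and the WT mice came from other litters than the knockout mice. Another library of the series, from mice with an induced deletion of *Ctnnb1* in ECs, was not compared here. With 1 library per genotype, genotype, litter and library cannot be told apart, there is no replicate check and no test was made.

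TSPAN12 is a tetraspanin of the cell surface that binds the receptor FZD4 with its co-receptor LRP5. It strengthens the response of ECs to Norrin, a ligand made by retinal glia that stabilises beta-catenin. Beta-catenin then acts with TCF/LEF factors on target genes. In the retina the pathway is known for guiding the growth of the vessels into the deep layers and for the blood-retina barrier, in which ECs carry tight junctions and transporters and lack the fenestral protein PLVAP.

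The median depth was 16153.5 UMIs per EC in WT and 17437 in *Tspan12* KO, the deepest ECs held 251052 and 104352 UMIs, and the summed counts were 18186067 and 9478728 UMIs. Over these sums a level is given in CPM (UMIs of the gene divided by the summed UMIs, times 1000000), with an exact Poisson interval at 95%. A log2 ratio, KO over WT, has an exact conditional binomial interval. These intervals and those of shares of cells (Clopper-Pearson) cover counting error only. All 8 gate markers were detected in 469 WT and 254 KO cells, and the median summed level of the markers was 52.5 per 10000 UMIs in WT and 51.3 in KO. Just inside the gate, at 10 to 12 per 10000, lay 9 WT and 14 KO cells, and just outside it, at 8 to 10, lay 46 and 80 cells. The libraries shared 37 cell barcodes, of which 0 were gated ECs in both. The sex mix differed. Of the WT ECs, 288 held UMIs of Y-linked genes and none of *Xist*, and 105 held *Xist* and no Y-linked UMI, whereas these numbers were 26 and 267 in *Tspan12* KO. Both kinds of UMI were held by 155 WT and 72 KO ECs, and neither by 48 and 36. With so many cells holding both, these classes need not separate the sexes cleanly. The sex-linked genes *Xist*, *Ddx3y*, *Eif2s3y*, *Kdm5d* and *Uty* were therefore kept out of all counts of genes, as were mitochondrial and gate genes. Other X-linked genes, such as *Slc38a5*, stayed in the counts. The main genes are also given in the cells with *Xist* and no Y-linked UMI.

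*Tspan12* (ENSMUSG00000029669) itself was counted at 1697 UMIs in WT ECs and 772 in KO ECs. These were 93.3 CPM (88.9 to 97.9) and 81.4 CPM (75.8 to 87.4), a log2 ratio of −0.20 (−0.32 to −0.07). A transcript that lacks internal exons can keep its 3′ end, so this count does not check the genotype label. In all other cells, which leaves out ECs and microglia, *Tspan12* was at 9.02 and 6.89 CPM. The gate markers, whose sum chose the cells, did not all lie at the same level. *Cdh5*, the EC cadherin, had a log2 ratio of 0.58 (0.54 to 0.62) and *Eng*, a co-receptor for BMP ligands, one of 0.56 (0.50 to 0.62). *Tie1*, an orphan receptor kinase, was at −0.49 (−0.58 to −0.40) and *Flt1*, a receptor that binds VEGF, at −0.26 (−0.29 to −0.22).

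The comparison over all genes was kept to those with at least 50 UMIs over both libraries, and a gene is called tested where it was compared in this way, with no statistical test. To keep genes of few counts from filling the extremes, 5 CPM was added to both levels before the log2 ratio was taken (the damped ratio), and a gene was called 2-fold higher or lower at a damped ratio of 1 or −1. Over 13012 genes tested, 127 were at least 2-fold higher in KO ECs (0.976%) and 118 at least 2-fold lower (0.907%). The counts of list members given below stand beside these shares. The middle of the distribution was narrow, with 90% of genes between damped ratios of −0.54 and 0.62. Past 4-fold lay 9 genes on the higher side and 6 on the lower side. The sides differed in the kind of gene. Of the 127 higher genes, 78 were not enriched in ECs, which means that their level in ECs was under 2 times that in non-endothelial cells of the KO library, and 29 belonged to marker lists of other cell types. Of the 118 lower genes, 29 were not enriched, by the same measure in the WT library. Among the 2487 genes enriched in ECs, 49 were 2-fold higher (1.97%) and 89 were 2-fold lower (3.58%). Each gene was judged in the library where it was higher, so the filter depends in part on the difference itself. These shares therefore cannot be set against those over all genes. *Acta2* and *Hbb-bs*, for instance, count as enriched by their KO level, while WT ECs held less of them than the other WT cells. Of the called genes, 6 higher and 2 lower ones were also past 2-fold on the same side in the other cells. Where a gene is at few CPM in the other cells, the 5 CPM added hold this count down. There *Slc38a5* had a damped ratio of −0.85 but a log2 ratio of −3.83 (−4.35 to −3.35). For *Slco1a4* these were 0.06 and 2.30 (0.82 to 4.26). The count therefore does not show which changes are particular to ECs. The other cells of the libraries gave 18 higher genes (0.0983%) and 19 lower genes (0.104%) of 18304 tested, from 8369 WT and 10532 KO cells. Microglia, with 413 and 652 cells, gave 181 higher (1.65%) and 105 lower (0.96%) of 10940.

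**Figure D1:**
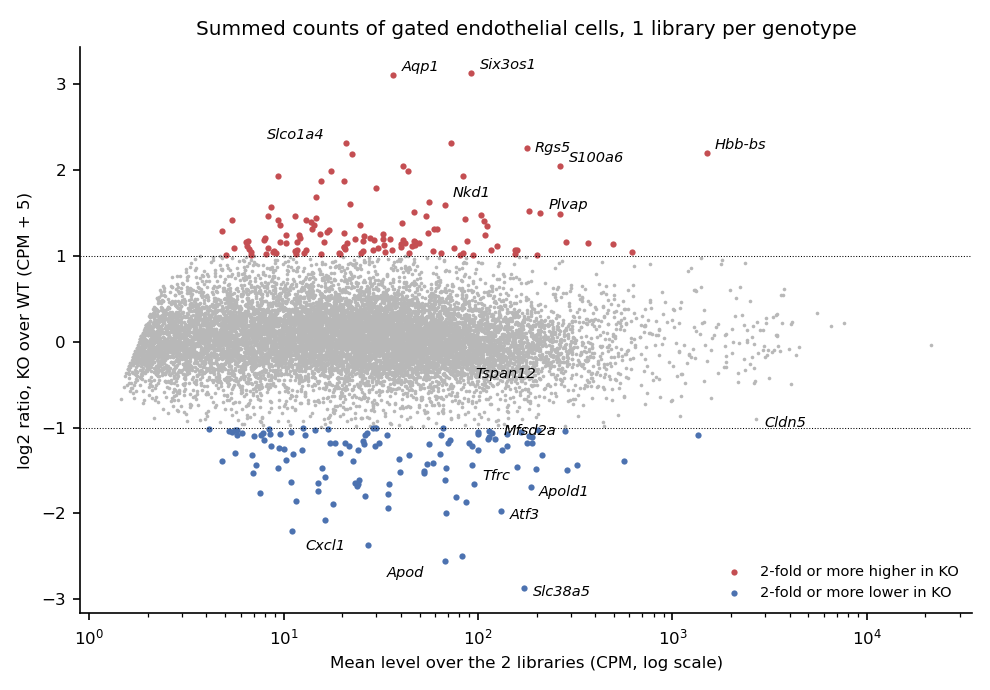
Damped log2 ratio (CPM + 5, KO over WT) of every gene tested in gated ECs against the mean level over both libraries in CPM, on a log axis. Points in red are the 127 genes at least 2-fold higher and points in blue the 118 at least 2-fold lower in the *Tspan12* KO library, grey points are the rest, and dotted lines mark 2-fold.

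The receptor complex and the TCF/LEF factors stayed within a narrow range. Of 10 genes of the complex and its factors, 9 were tested and 0 were past 2-fold in either direction. Their median damped ratio was 0.15, against 0.03 over all genes. The receptor *Fzd4* was at 69.9 CPM in WT and 82.0 CPM in KO, a log2 ratio of 0.23 (0.10 to 0.36). The co-receptor *Lrp5* was at 29.9 and 37.0 CPM, and *Ctnnb1*, which encodes beta-catenin, at 508 and 564 CPM. The largest damped ratio of this group, 0.41, was that of *Lef1*, at 251 and 334 CPM. *Ndp*, which encodes Norrin, had 3 UMIs in WT ECs and 6 in KO ECs, and both levels are too low to compare.

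The barrier transporters held the gene with the most negative damped ratio of all genes tested. *Slc38a5*, a glutamine and serine transporter known from retinal vessels, was counted at 5608 UMIs in WT ECs and 361 in KO ECs. These were 308 CPM and 38.1 CPM (34.3 to 42.2), a log2 ratio of −3.02 (−3.17 to −2.86). Thinned to 2000 UMIs per cell, which left out 10 WT and 27 KO cells, 41.0% (36.9 to 45.1%) of WT ECs held an *Slc38a5* UMI and 7.49% (5.03 to 10.6%) of KO ECs did, and 76.0% and 26.7% without thinning. In the other cells the thinned shares were 1.09% and 0.0845%. The damped ratio of −2.86 was −2.61 in cells with *Xist* and no Y-linked UMI and −2.77 in cells not called cycling. The 250 bases before the RefSeq start of *Slc38a5* are shown because its damped ratio was the most negative, at chrX:8271131-8271380 of build GRCm38.p6 on the plus strand, written 5′ to 3′. They hold no match, on either strand, to the TCF/LEF motif CTTTGA, which 13.8% of 32817 such windows of all genes hold, and no match says only that these letters are not in this window.
Slc38a5: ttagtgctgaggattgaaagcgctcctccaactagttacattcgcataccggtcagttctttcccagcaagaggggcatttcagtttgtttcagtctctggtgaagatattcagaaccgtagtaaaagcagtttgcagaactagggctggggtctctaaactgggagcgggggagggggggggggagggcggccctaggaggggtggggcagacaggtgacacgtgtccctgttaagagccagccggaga

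Of 18 barrier transporters tested, 5 were 2-fold lower and 1 was 2-fold higher, and the median damped ratio was −0.21. Over all genes tested, 0.907% were lower and 0.976% higher by this measure. The 1 higher gene was *Slco1a4*, an organic anion transporter, at 3.74 CPM (2.90 to 4.74) in WT and 38.3 CPM (34.5 to 42.4) in KO. *Slc22a8*, another organic anion transporter, went the opposite way, from 31.1 to 4.75 CPM, a log2 ratio of −2.71 (−3.18 to −2.27). *Slc16a1*, a carrier of lactate and other monocarboxylates, was at 25.2 CPM in WT and 4.64 CPM in KO. *Tfrc*, the transferrin receptor, was at 147 CPM in WT and 43.1 CPM in KO, a log2 ratio of −1.76 (−1.92 to −1.61). *Mfsd2a*, which carries lysophosphatidylcholine and restrains transcytosis, was at 170 and 74.4 CPM, a log2 ratio of −1.19 (−1.31 to −1.07). In cells with *Xist* and no Y-linked UMI, the damped ratios were 2.85 for *Slco1a4*, −1.97 for *Slc22a8*, −1.52 for *Slc16a1* and −1.72 for *Tfrc*. That of *Mfsd2a* was −0.998, just short of 2-fold. Without cells holding markers of 8 other classes, *Slc16a1* was at −0.82 and *Mfsd2a* at −0.70, both short of 2-fold. *Slc38a5*, *Slc22a8*, *Tfrc* and *Slco1a4* stayed past it there. The carriers with the highest levels differed little. *Slc2a1*, the glucose transporter, was at 624 and 767 CPM, *Slc7a5* and *Slc3a2*, which together form the large neutral amino acid transporter, at 665 and 755 CPM and at 670 and 767 CPM, and *Slc7a1*, a cationic amino acid transporter, at 510 and 392 CPM. The efflux pumps *Abcb1a* and *Abcg2* had damped ratios of 0.02 and 0.02.

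Junction genes moved less. Of 11 tight junction genes tested, 0 were past 2-fold, with a median damped ratio of −0.29. *Cldn5*, the main claudin of ECs, was at 3516 CPM in WT and 1881 CPM in KO, a log2 ratio of −0.90 (−0.93 to −0.88). Its damped ratio was −1.74 in the other cells and −1.65 in microglia, larger than in ECs. *Ocln*, which encodes occludin, was at 61.6 and 49.3 CPM, and *Tjp1*, a scaffold of the junction, at 367 CPM in both. Of 8 adherens junction genes, *Jup*, which encodes plakoglobin, was the 1 past 2-fold, at 99.03 CPM in WT and 212 CPM in KO, a log2 ratio of 1.10 (1.01 to 1.19). *Cdh2*, the neural cadherin, was at 684 and 438 CPM.

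*Plvap*, which forms the diaphragms of fenestrae and caveolae, was higher in KO ECs. It was at 107 CPM (102 to 111) in WT and 309 CPM (298 to 321) in KO, a log2 ratio of 1.54 (1.46 to 1.62). The share of thinned ECs with a *Plvap* UMI was 17.7% (14.7 to 21.1%) in WT and 37.7% (32.8 to 42.8%) in KO, against 0.5002% and 0.676% of the other cells, and without thinning 64.6% and 73.3% of ECs held one. The damped ratio of 1.496 was 1.21 in cells with *Xist* and no Y-linked UMI and 1.56 in cells not called cycling. Of the 9 genes of the list that holds *Plvap* with caveolar genes, it was the 1 past 2-fold. *Cav1*, the main caveolin, was at 140 and 180 CPM and *Cavin1*, its coat partner, at 110 and 148 CPM.

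The Wnt feedback and target genes were split. Of 22 genes, 17 were tested, of which 2 were 2-fold higher and 1 was 2-fold lower, with a median damped ratio of 0.21. Over all genes tested the shares were 0.976% and 0.907%. *Nkd1*, a feedback inhibitor of the pathway, was at 31.1 CPM (28.6 to 33.7) in WT and 103 CPM (97.1 to 110) in KO, a log2 ratio of 1.74 (1.59 to 1.89). The share of ECs with an *Nkd1* UMI differed less, at 37.9% in WT and 40.6% in KO. After thinning to 2000 UMIs it was 6.997% (5.07 to 9.37%) and 11.8% (8.68 to 15.5%). A single EC held up to 13 *Nkd1* UMIs in WT and up to 62 in KO. The other cells were at 25.4 CPM in WT and 30.2 CPM in KO. *Sp5*, a transcription factor directly downstream of beta-catenin, was at 2.47 CPM (1.80 to 3.31) and 10.8 CPM (8.77 to 13.1). *Axin2*, a scaffold of the complex that degrades beta-catenin, had a damped ratio of 0.91 from 13.4 and 29.5 CPM, and *Tnfrsf19*, a receptor gene, one of 0.96 from 30.4 and 63.8 CPM. *Apcdd1*, an inhibitor at the membrane, was at 156 and 186 CPM, *Ccnd1*, which encodes cyclin D1, at 235 and 366 CPM, and *Znrf3*, a ligase that removes Frizzled receptors, at 78.0 and 69.0 CPM. In cells with *Xist* and no Y-linked UMI the damped ratios were 1.14 for *Nkd1*, 1.21 for *Sp5* and 0.89 for *Axin2*. Without cells holding markers of 8 other classes *Sp5*, counted at 45 and 102 UMIs over all gated cells, was at 0.51, short of 2-fold. In the other cells they were 0.21 for *Nkd1* and 0.01 for *Sp5*. The window of *Sp5* is shown with both matches to the TCF/LEF motif CTTTGA in capitals, at chr2:70474673-70474922 of GRCm38.p6 on the plus strand. The window of *Nkd1* and that of *Axin2* hold 0 matches.
Sp5: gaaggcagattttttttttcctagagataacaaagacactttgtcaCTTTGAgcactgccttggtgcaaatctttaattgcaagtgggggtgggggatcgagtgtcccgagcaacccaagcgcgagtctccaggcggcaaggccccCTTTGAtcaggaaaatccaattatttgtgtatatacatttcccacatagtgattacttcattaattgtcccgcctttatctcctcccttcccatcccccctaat

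Some chemokines and immediate early genes were lower in KO ECs. Of 11 adhesion molecules and chemokines tested, 2 were 2-fold lower and 0 higher, 4 lay above 0, and the median damped ratio was −0.18. Over all genes tested, 0.907% were 2-fold lower and 0.976% higher. *Cxcl1*, a chemokine that attracts neutrophils, was counted at 886 UMIs in WT ECs and 51 in KO ECs, or 48.7 CPM (45.6 to 52.0) and 5.38 CPM (4.01 to 7.07). In the other cells it was at 1.34 and 0.455 CPM, a log2 ratio of −1.56 (−2.06 to −1.06). *Cxcl2*, its neighbour on the chromosome, was at 14.4 CPM (12.7 to 16.3) and 0.739 CPM (0.297 to 1.52), from 262 and 7 UMIs. Its damped ratio was −1.76 in ECs and −2.68 in microglia, where it was at 129 CPM in WT and 15.9 CPM in KO. *Icam1*, which leukocytes bind, was at 199 and 82.9 CPM, a log2 ratio of −1.26 (−1.37 to −1.15), with a damped ratio of −1.06 in microglia. In ECs its damped ratio of −1.21 was −0.51 without cells holding markers of 8 other classes. *Icam2*, which resting ECs carry, was at 215 and 201 CPM. *Cxcl1* and *Cxcl2* are shown with their windows because they fell together. The NF-kB motif, GGG and TTTCC with any 2 bases between them, was searched on both strands and its matches are in capitals. Each window holds 2, whereas 1.41% of the 32817 windows hold any, and the window of *Icam1* holds 0. Both lie on the plus strand of GRCm38.p6, at chr5:90890995-90891244 for *Cxcl1* and at chr5:90903649-90903898 for *Cxcl2*.
Cxcl1: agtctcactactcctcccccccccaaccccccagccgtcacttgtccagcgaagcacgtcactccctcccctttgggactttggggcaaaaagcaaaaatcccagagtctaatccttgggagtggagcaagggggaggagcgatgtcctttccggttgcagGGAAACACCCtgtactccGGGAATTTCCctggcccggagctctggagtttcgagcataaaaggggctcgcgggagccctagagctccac
Cxcl2: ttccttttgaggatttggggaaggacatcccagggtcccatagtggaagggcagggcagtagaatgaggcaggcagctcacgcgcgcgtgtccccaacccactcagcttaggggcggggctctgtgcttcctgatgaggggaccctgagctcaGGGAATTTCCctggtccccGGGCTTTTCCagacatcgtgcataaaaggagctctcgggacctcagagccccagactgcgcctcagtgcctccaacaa

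Of 19 immediate early and stress genes, 3 were 2-fold lower and 0 higher, 4 lay above 0, and the median damped ratio was −0.41, against 0.08 in the other cells. Over all genes tested in ECs, 0.907% were 2-fold lower and 0.976% higher. *Atf3*, a transcription factor induced by stress, was at 212 CPM (206 to 219) in WT and 50.4 CPM (46.0 to 55.2) in KO, a log2 ratio of −2.07 (−2.21 to −1.94). *Nr4a1*, a nuclear receptor induced within minutes of a stimulus, was at 262 and 118 CPM, and its relatives *Nr4a2* and *Nr4a3* were at 139 and 34.6 CPM and at 25.8 and 4.22 CPM. *Ccn1*, a matricellular protein induced by serum, was at 162 and 74.6 CPM. *Apold1*, an EC gene induced by hypoxia and activity, was at 287 and 85.2 CPM, a log2 ratio of −1.75 (−1.86 to −1.64). The most abundant members moved less, with *Fos* at 1218 and 754 CPM, *Junb* at 889 and 689 CPM and *Egr1* at 626 and 447 CPM. Immediate early genes also respond to digestion of tissue. In the other cells the damped ratios were −0.81 for *Atf3*, −0.51 for *Nr4a1*, −0.42 for *Nr4a2*, −0.38 for *Nr4a3* and −0.21 for *Ccn1*. There *Apold1* was at −0.62 and *Fos* at −0.05, whereas *Junb* lay at 0.12 and *Egr1* at 0.38. Without the 5 CPM added, the log2 ratio of *Atf3* in the other cells was −0.999 (−1.09 to −0.909). That of *Apold1* there was −1.66 (−1.92 to −1.41), from 5.24 and 1.65 CPM, near its log2 ratio in ECs. In microglia of the same libraries the damped ratios were −0.65 for *Atf3*, −1.18 for *Nr4a1* and −0.54 for *Fos*. The part of the preparation was not tested.

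The other leading falls had various roles. *Apod*, a lipid carrier of the lipocalin family, was at 119 CPM in WT and 16.1 CPM in KO, a log2 ratio of −2.88 (−3.12 to −2.64). *Asb4*, which is part of a ubiquitin ligase, was at 112 and 24.5 CPM. *Egfl8*, a secreted relative of the gate marker *Egfl7*, was at 122 and 31.2 CPM. *Angptl4*, an inhibitor of lipoprotein lipase that hypoxia and fatty acids induce, was at 55.9 and 12.9 CPM. *Far2*, which reduces fatty acyl groups to alcohols, was at 29.4 and 3.17 CPM. *Ccdc141*, *Sh2d4b* and *Nebl*, which encodes a nebulin-like protein of actin filaments, had log2 ratios of −2.28 (−2.62 to −1.96), −2.16 (−2.51 to −1.83) and −1.97 (−2.24 to −1.71). In the other cells the log2 ratio was −1.35 (−1.62 to −1.08) for *Apod* and −1.38 (−1.84 to −0.92) for *Angptl4*. It was −0.15 (−0.29 to −0.003) for *Ccdc141* there. *Lsmem1*, a membrane protein, fell from 390 UMIs to 7. Its damped ratio was −2.20 in ECs and −3.16 in microglia, and its level in WT was 21.4 CPM in ECs and 68.8 CPM in microglia. Of the 20 leading falls among enriched genes, 17 were past 2-fold in each of the 16 alternatives of scaling, pseudocount and choice of cells, and the exceptions were *Lsmem1*, *Cxcl2* and *Nebl*.

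*Aqp1*, a water channel, had the highest damped ratio of the genes enriched in ECs. It was counted at 67 UMIs in WT ECs, or 3.68 CPM (2.86 to 4.68), and at 657 in KO ECs, or 69.3 CPM (64.1 to 74.8), a log2 ratio of 4.23 (3.87 to 4.62). In the other cells it was at 0.455 and 0.992 CPM. Of the ECs thinned to 2000 UMIs, 1.02% (0.377 to 2.22%) held an *Aqp1* UMI in WT and 10.4% (7.52 to 14.0%) in KO, and 3.69% and 24.4% did so without thinning. The damped ratio of 3.10 was 2.61 in cells with *Xist* and no Y-linked UMI, 4.24 in cells with Y-linked and no *Xist* UMI and 3.01 in cells not called cycling. Of the 8 tested genes of the shear-responsive list that holds *Aqp1*, it was the 1 past 2-fold. *Klf2*, a factor that flow induces in ECs, was at 1046 and 884 CPM, its relative *Klf4* at 268 and 169 CPM, and *Nos3*, the endothelial nitric oxide synthase, at 115 and 75.1 CPM.

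*Itih5*, which stabilises hyaluronan in the matrix, was at 13.0 CPM in WT and 69.0 CPM in KO, a log2 ratio of 2.41 (2.19 to 2.63). *S100a6*, a calcium-binding protein, was at 100.3 CPM (95.8 to 105) and 429 CPM (416 to 443), and 11.9% of thinned WT ECs and 37.7% of thinned KO ECs held a UMI of it, against 1.42% and 2.58% of the other cells. Without thinning the shares of ECs were 41.9% and 66.1%. *Ramp3*, which makes the calcitonin receptor-like receptor respond to adrenomedullin, was at 5.94 and 34.9 CPM. Its damped ratio of 1.87 was 1.05 in cells with *Xist* and no Y-linked UMI and 3.30 in cells with Y-linked and no *Xist* UMI. *Ramp2*, its relative with the same receptor, was at 1165 and 1130 CPM. *Acer2*, a ceramidase of the Golgi, was at 24.9 and 87.2 CPM and *Ccnd2*, which encodes cyclin D2, at 44.4 and 128 CPM. In the other cells the log2 ratio was −0.28 (−0.44 to −0.12) for *Acer2*. For *Ccnd2* it was 1.39 (1.15 to 1.63) there, from 2.58 and 6.74 CPM, against 1.53 in ECs. *Itih5*, *S100a6*, *Ramp3*, *Acer2*, *Ccnd2*, *Aqp1*, *Slco1a4*, *Nkd1* and *Plvap* were the 9 of the 20 leading rises that stayed past 2-fold in each of the 16 alternatives. Among KO ECs thinned to 2000 UMIs, 14 of the 39 cells with an *Aqp1* UMI held an *Itih5* UMI, or 35.9%, against 8.06% of the cells without one. For *Plvap* the shares were close, at 38.5% of the cells with *Aqp1* and 37.6% of the rest.

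**Figure D2:**
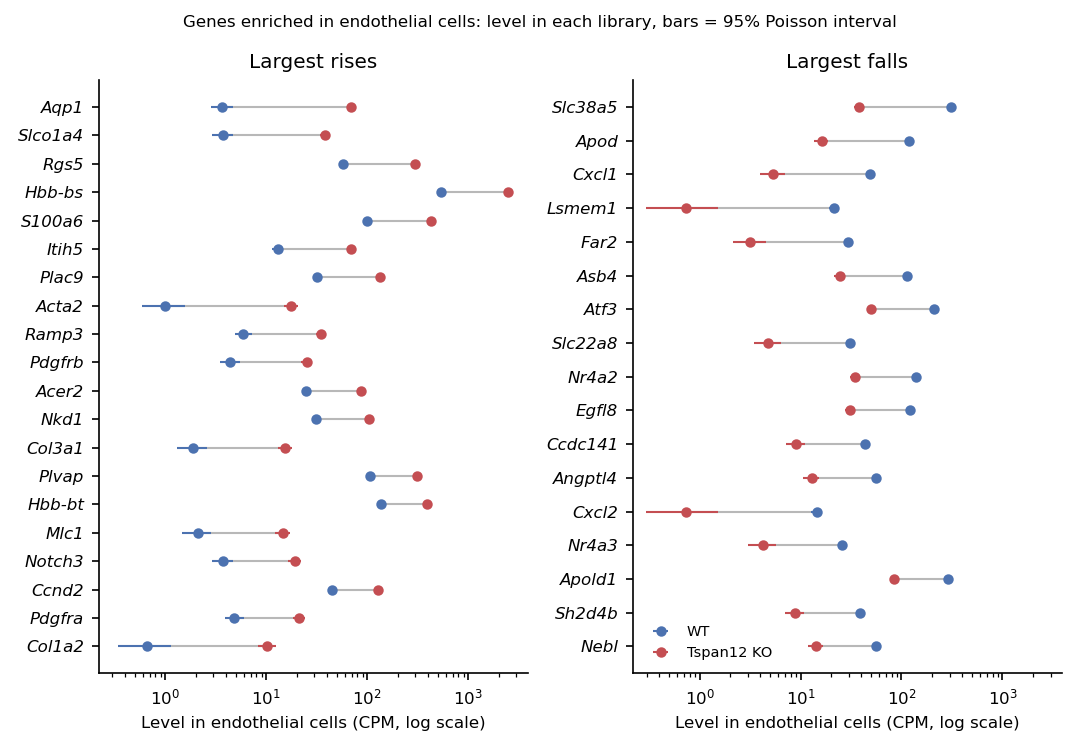
Level in CPM on a log axis of the 20 leading rises and 17 of the 20 leading falls among genes enriched in ECs, in the WT library (blue) and the *Tspan12* KO library (red), with 95% Poisson intervals that cover counting error only. The levels of each pair lie apart by more than these intervals, and *Rgs5*, *Acta2*, *Pdgfrb*, *Notch3*, *Pdgfra*, *Col1a2*, *Col3a1*, *Hbb-bs* and *Hbb-bt* are genes of mural cells, astrocytes, fibroblasts and erythrocytes.

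Of the remaining 11 leading rises, 9 were on marker lists of other cell types, and these lists moved with the libraries. The exceptions were *Plac9*, a small secreted protein, at 31.8 and 135 CPM, and *Mlc1*, a membrane protein of astrocyte endfeet, at 2.09 and 14.6 CPM. Both stayed past 2-fold without the cells holding rod, mural or erythrocyte markers, at damped ratios of 1.56 and 1.57. Without cells holding markers of 8 other classes they were at 0.59 and 0.16, short of 2-fold. Of 11 mural cell genes tested, 7 were 2-fold higher in KO ECs and 0 lower, and the summed level of the 12 listed rose from 112 CPM in WT to 474 CPM in KO. *Rgs5*, a pericyte gene, was at 58.2 and 297 CPM. *Pdgfrb*, the receptor that recruits pericytes, was at 4.40 and 25.1 CPM, and *Acta2*, smooth muscle actin, at 0.990 and 17.7 CPM. The signal lay in few cells. Of the WT ECs, 5 of 596 held 10 or more mural UMIs per 10000, or 0.839% (0.273 to 1.95%), and of the KO ECs 44 of 401, or 10.97% (8.09 to 14.4%). Without these cells the damped ratios were 0.70 for *Rgs5*, 0.37 for *Pdgfrb*, 0.47 for *Acta2*, 0.06 for *Notch3* and 0.16 for *Col1a2*.

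Rod genes showed a like pattern. Of 11 tested, 9 were 2-fold higher and 0 lower, with a median damped ratio of 1.38, and the summed level of the list was 413 CPM in WT and 1115 CPM in KO. *Pdc*, which encodes phosducin, was at 92.4 and 274 CPM. Of the ECs, 6.88% in WT and 25.9% in KO held 10 or more rod UMIs per 10000. Erythrocyte genes were 2-fold higher for 4 of 5 tested. *Hbb-bs*, a beta globin, was at 536 and 2462 CPM, and 1 WT cell held 4547 of its UMIs and 1 KO cell 4874. *Hbb-bs* and *Hbb-bt* are close copies whose reads may be split between them. When the cells above 10 per 10000 for rod, mural or erythrocyte genes were left out, 546 WT and 252 KO cells remained, and 69 genes were 2-fold higher and 119 lower. Of these, 49 and 104 were among those called in all gated cells. In these cells the damped ratios were 3.18 for *Aqp1*, 2.42 for *Slco1a4*, 1.57 for *Plvap*, 1.78 for *Nkd1*, 2.10 for *S100a6* and −2.84 for *Slc38a5*. Of 11 microglia markers tested, *C1qb* was the 1 past 2-fold, at 19.2 and 6.44 CPM. The median of that list was −0.45 in ECs, where the gate itself limited *C1qa*, *Cx3cr1* and *Csf1r*, and −0.74 in the other cells. Markers of pigment epithelium and melanocytes summed to 2.20 CPM in WT and 3.80 CPM in KO, and 0 of the 8 reached the 50 UMIs.

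**Figure D3:**
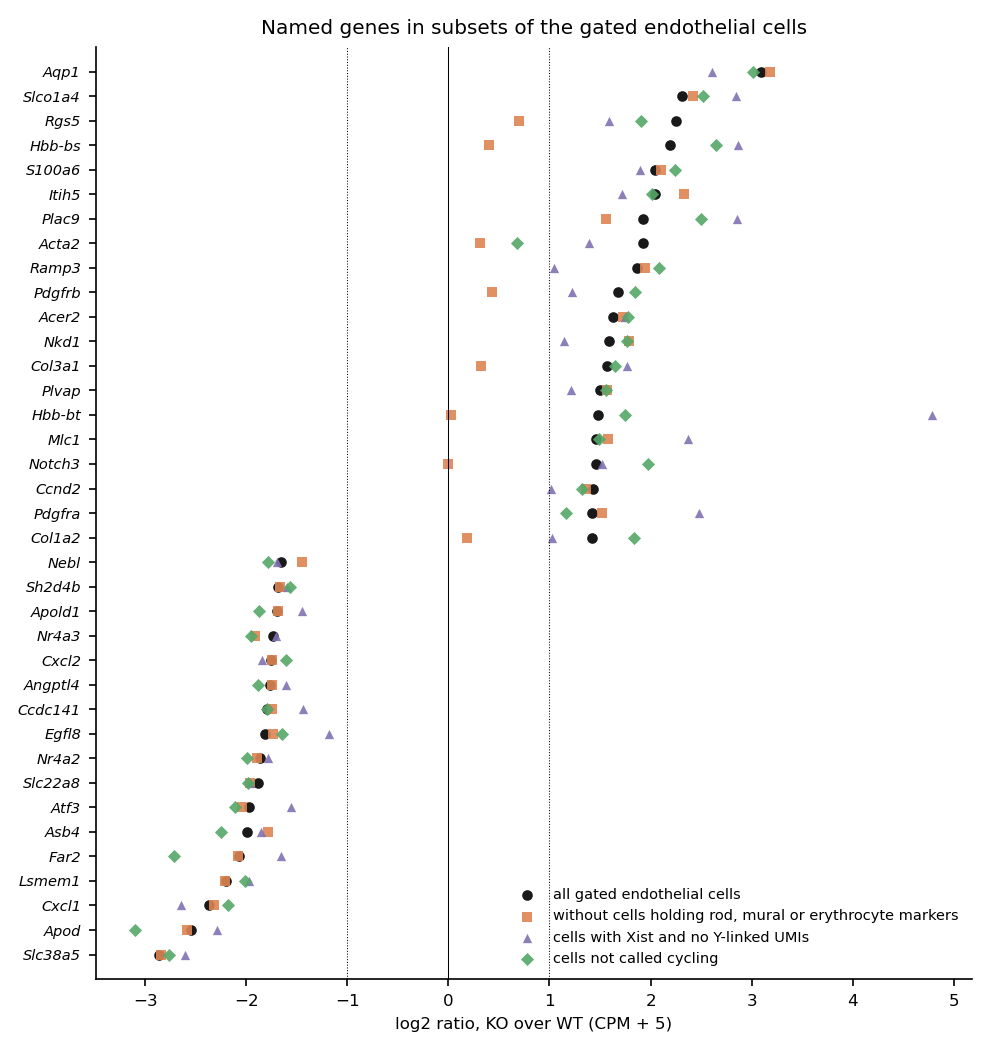
Damped log2 ratio (CPM + 5, KO over WT) of the same rises and falls in all gated ECs, without the cells that hold rod, mural or erythrocyte markers, in cells with *Xist* and no Y-linked UMI, and in cells not called cycling. The falls shown stay between −3.10 and −1.18, whereas *Rgs5*, *Acta2*, *Pdgfrb*, *Notch3*, *Col1a2*, *Col3a1*, *Hbb-bs* and *Hbb-bt* lie under 1 once the marked cells are left out. Of these, *Rgs5*, *Acta2*, *Pdgfrb*, *Notch3*, *Hbb-bs* and *Hbb-bt* are among the genes that marked those cells.

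The largest damped ratio of all genes, 3.13, was that of *Six3os1*, a noncoding RNA transcribed opposite to *Six3*, from which only the strand of a read tells it apart where they overlap. It was counted at 273 UMIs in WT ECs, or 15.01 CPM (13.3 to 16.9), and at 1611 in KO ECs, or 170 CPM (162 to 178). *Six3*, a homeobox gene of the developing eye and forebrain, was at 20.9 CPM (18.9 to 23.2) and 124 CPM (117 to 131). Both are abundant in the other cells, where *Six3os1* was at 129 and 165 CPM and *Six3* at 285 and 233 CPM. After thinning, 3.92% of WT ECs and 23.3% of KO ECs held a *Six3os1* UMI, against 19.4% and 24.8% of the other cells. Without thinning these shares were 23.7% and 43.1% of ECs and 40.3% and 46.6% of the other cells. Without the cells holding rod, mural or erythrocyte markers the damped ratios were 3.28 for *Six3os1* and 2.33 for *Six3*. The mural and rod genes themselves chose the cells left out, whereas *Six3os1* and *Six3* did not, so their ratios there cannot be set against each other. No alternative left out cells by progenitor markers, and whether these UMIs come from other cells was not tested. Of the 12 genes of retinal progenitors and precursors, 9 were tested and *Six3* was the 1 past 2-fold. *Rax*, also a homeobox gene of progenitors, was at 30.4 and 47.5 CPM. In KO ECs thinned to 2000 UMIs, 22 of 39 cells with *Aqp1* held a *Six3os1* UMI, or 56.4%, against 19.4% of the cells without *Aqp1*, and for *Plvap* the shares were 21.3% and 24.5%.

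Some genes of the matrix and growth factor lists were 2-fold higher. Of 16 basement membrane genes, 2 were 2-fold higher and 0 lower, with a median damped ratio of 0.21. Over all genes tested the shares were 0.976% and 0.907%. *Hspg2*, which encodes perlecan, was at 307 and 683 CPM, a log2 ratio of 1.15 (1.10 to 1.21), and *Col15a1*, a collagen of the same layer, at 132 and 271 CPM. In cells with *Xist* and no Y-linked UMI the damped ratios were 0.90 for *Hspg2* and 0.55 for *Col15a1*, both short of 2-fold. *Fn1*, which encodes fibronectin, was at 674 and 369 CPM, and the type IV collagen chain *Col4a1* at 1882 and 2322 CPM. Of 17 BMP and TGF-beta genes tested, 2 were 2-fold higher. These were *Id2*, a target of BMP signals, at 51.9 and 123 CPM, and *Tgfb2*, a ligand, at 73.1 and 159 CPM. *Id3* had a damped ratio of 0.90 and *Id1* one of 0.04. *Igfbp5*, which binds insulin-like growth factors, was at 7.75 and 26.5 CPM, the 1 of 12 PDGF and IGF genes past 2-fold. The summed level of that list was 4436 CPM in WT and 3907 CPM in KO. *Ednrb*, an endothelin receptor, was at 13.8 and 37.5 CPM, but its damped ratio of 1.17 over all gated cells was 0.43 in cells with *Xist* and no Y-linked UMI.

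Each list of vessel state held at most 1 called gene. Over all genes tested, 0.976% were 2-fold higher and 0.907% lower. Of 17 tip cell genes, *Adm*, which encodes the vasodilator adrenomedullin, was the 1 past 2-fold, at 26.01 and 8.65 CPM, and the median damped ratio was 0.06. *Esm1* and *Angpt2*, which mark sprouting cells, were at 50.3 and 42.5 CPM and at 35.0 and 27.0 CPM. In cells with *Xist* and no Y-linked UMI their damped ratios were −1.03 and −1.17, and in cells with Y-linked and no *Xist* UMIs 0.99 and −0.11, so *Esm1* had no steady direction. *Cxcr4*, a chemokine receptor of tip cells, was at 23.8 and 44.0 CPM. Of 14 arterial genes tested, *Mgp*, a matrix protein that mural cells also make, was the 1 past 2-fold, at 32.2 and 87.1 CPM, and its damped ratio turned from 1.31 to −0.58 without the cells holding mural markers. The list median was −0.36, with *Gja4* and *Gja5*, connexins of arterial ECs, at 175 and 118 CPM and at 3.79 and 1.37 CPM. Of 12 venous genes tested, *Icam1* was the 1 past 2-fold, and *Nr2f2*, the factor that specifies veins, was at 90.9 and 90.5 CPM. Of 13 Notch genes and 9 VEGF genes, 0 were past 2-fold, with medians of 0.20 and −0.03. The main VEGF receptor *Kdr* was at 585 and 711 CPM and *Dll4*, the Notch ligand of tip cells, at 94.96 and 90.6 CPM. Of the 9 SoxF and Ets factors, 0 were past 2-fold, with *Sox18* nearest at 222 and 116 CPM.

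Few cell cycle genes were past 2-fold. Of 26 mitosis genes 24 had a damped ratio under 0, with a median of −0.39, but the median in the other cells was −0.43. *Hmmr*, a spindle protein, was the 1 past 2-fold, at 41.6 and 18.1 CPM. Of 20 DNA replication genes, 0 were past 2-fold and the median was −0.16. A rule of 3 or more UMIs over 12 mitosis genes, which deeper cells pass more readily, called 347 of 596 WT ECs and 212 of 401 KO ECs cycling. The leading genes kept their direction in both classes. As damped ratios, *Slc38a5* was at −2.95 in cycling cells and −2.77 in the rest, and *Aqp1* at 2.93 and 3.01. Others differed more, with *Acta2* at 2.19 and 0.68, *Far2* at −1.91 and −2.72 and *Apod* at −2.39 and −3.10. *Hmmr* was at 0.03 in cells not called cycling.

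**Figure D4:**
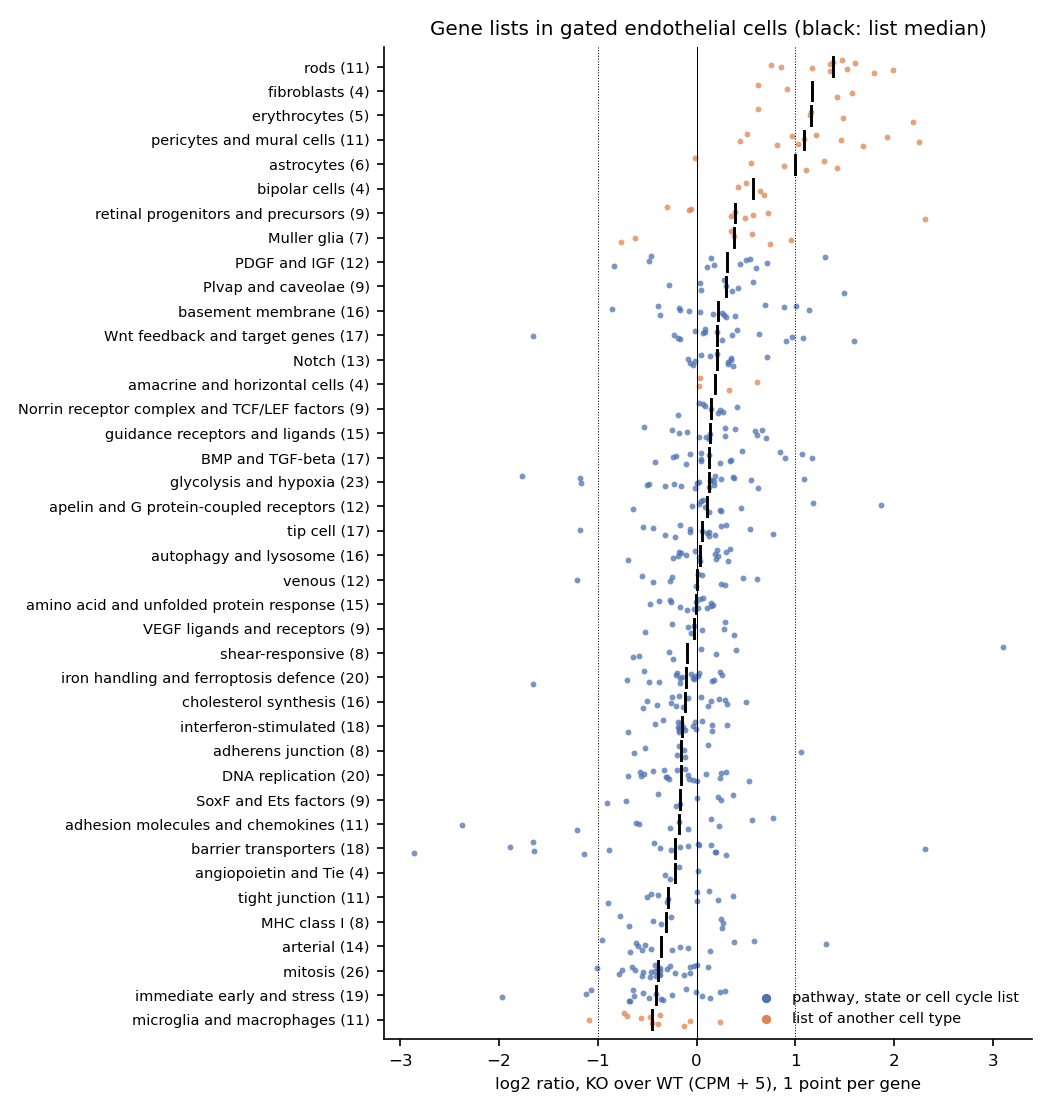
Damped log2 ratio (CPM + 5, KO over WT) of the tested members of each gene list with at least 4 of them in gated ECs, 1 point per gene, with the list median as a black bar and the number tested in brackets. Lists of other cell types (orange) take the highest medians, up to 1.38 for rods, and the barrier transporters spread from −2.86 to 2.31.

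The metabolic lists and those given with them here had medians between −0.31 and 0.12. Of 23 glycolysis and hypoxia genes tested, 1 was 2-fold higher and 3 were lower. Over all genes tested, 0.976% were higher and 0.907% lower by this measure. The higher gene was *Ndrg1*, a target of hypoxia, at 46.5 and 104 CPM, whose damped ratio of 1.09 was 0.38 without the cells holding rod, mural or erythrocyte markers. The lower ones were *Adm*, *Angptl4* and *Eno1*, which encodes enolase. Of 20 genes of iron handling and ferroptosis defence tested, *Tfrc* was the 1 past 2-fold. *Fth1* and *Ftl1*, the ferritin chains, were at 3057 and 2192 CPM and at 1253 and 961 CPM, and *Slc40a1*, which exports iron, was at 133 and 117 CPM. Of the 18 interferon-stimulated genes, 8 MHC class I genes, 16 cholesterol genes, 15 genes of the amino acid and unfolded protein response and 16 of autophagy and lysosome tested, 0 were past 2-fold, and the medians lay between −0.31 and 0.03.

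Some genes moved alike in ECs, microglia and the other cells. *Sdhd*, a subunit of complex II, had damped ratios of −1.31 in ECs, −0.98 in the other cells and −0.85 in microglia, and *Eno1* of −1.17, −0.89 and −0.91. *Snrpg*, a spliceosome protein, was at 1.04, 0.90 and 1.10 in the same order. *Rps21*, a ribosomal protein, was at 0.95, 0.93 and 0.89. Of 82 cytosolic ribosomal protein genes tested, 0 were past 2-fold, with a median of 0.12. The 13 mitochondrial genes were all lower in KO ECs, with a median damped ratio of −0.59 in ECs and −0.32 in the other cells, and their share of a cell's UMIs had a median of 3.79% in WT ECs and 2.28% in KO ECs. What sets these values apart between the libraries was not tested.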

How the data were processed

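Droplet single-cell RNA-seq was deposited as 1 matrix of UMI counts per library. Per the file headers these deposited counts came from Cell Ranger 8.0.1, while the methods name a later version, and the genome build is GRCm39 in the submitters' processing notes but mm10 in the methods, so no coordinate of the files was used. No cell annotation was used here. The feature table held 33696 genes, and 31961 of their identifiers were found in the table of gene names. Cells under 1000 UMIs or over 15% of them mitochondrial were dropped, and ECs were gated on 8 markers. The genes and lists were chosen with earlier results of these data known.

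Counts were summed over the gated cells of each library (Python 3.11.15, scanpy 1.11.5, scipy 1.17.1) and compared as CPM with exact intervals at 95%. A gene with 50 UMIs over both libraries was tested against a 2-fold limit after 5 CPM was added. Named genes were the 20 largest rises and 20 largest falls among genes enriched in ECs, the 5 in each direction among all genes, the target and the gate markers. Enrichment was judged in the library with the higher level, so the choice of leading genes depends in part on the difference itself. List members and the motif windows were described besides, and the genes whose windows are printed, those in the paragraphs on metabolism and on genes that moved alike in all 3 classes of cells, and those under other observations were chosen after their values were seen. Some of the genes so chosen are not reported here. Ribosomal protein kinases were left out of the ribosomal list. Doublets were scored with Scrublet, whose automatic threshold called 0 cells, so the cells were kept and leaving out the highest scores was an alternative. TMM factors came from edgeR 4.0.16, and no count model was fitted. The ratios and their intervals were tested on simulated data, and the gate was not. Windows are from RefSeq, build GRCm38.p6.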

Additional observations from a re-analysis of the deposited data

Results flagged for a closer look

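3 genes among the leading rises in KO ECs went the opposite way, past 2-fold, in another class of cells of the same libraries, which is what singled them out. *Rgs5* had a damped ratio of 2.26 in ECs and of −1.15 in microglia, where it was at 14.7 CPM in WT and 3.92 CPM in KO. *S100a6* had a damped ratio of 2.04 in ECs and of −1.58 in microglia, at 35.2 and 8.49 CPM there. *Hbb-bt*, a globin gene, had a damped ratio of 1.48 in ECs and of −1.03 in the other cells, at 192 and 91.4 CPM there. With 1 library per genotype these differences between classes of cells were not tested.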

How the results depend on the processing

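No paired analysis was possible because each genotype had 1 library, and for the same reason no replicate could be left out. Against 127 higher and 118 lower genes, adding 1 CPM in place of 5 gave 404 and 324, thinning to 2000 UMIs gave 370 and 317, and the 288 WT and 26 KO cells with Y-linked and no *Xist* UMIs gave 464 and 798. Without cells holding markers of 8 other classes (181 WT and 46 KO cells left) 226 were lower. Without those holding rod, mural or erythrocyte markers 69 were higher. The other alternatives kept both counts within 1.5 times, as did TMM scaling with 110 and 131. Like counts did not mean the same genes. Of the 127 and 118, TMM scaling called 110 and 118 again, and cells not called cycling 67 and 86. Cells with *Xist* and no Y-linked UMI called 74 and 89 again, and those without markers of 8 other classes 30 and 90. Alternatives without rod, mural or erythrocyte cells and in cells with *Xist* and no Y-linked UMI were chosen after seeing the data. Of 82 called genes followed over 16 alternatives, 31 stayed past 2-fold in each.

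Of the genes and list medians past 2-fold, the damped ratio changed sign in 25 cases, and sign changes of genes short of 2-fold are not counted in these. Without the 8 classes they were −0.034 for *Rgs5*, −0.052 for *Acta2*, −0.052 for *Pdgfrb*, −0.35 for *Hbb-bt*, −0.073 for *Notch3*, −0.20 for *Pdgfra*, −1.02 for *Mgp*, −0.083 for *Sag*, −0.19 for *Nrl*, −0.60 for *Opn1sw*, −0.10 for *Gfap*, −0.86 for *Hba-a1*, −0.52 for *Hba-a2*, and −0.030 and −0.35 for the medians of the mural and erythrocyte lists. Without rod, mural or erythrocyte cells they were −0.0091 for *Notch3*, −0.59 for *Mgp*, −0.24 for *Hba-a1*, −0.69 for *Hba-a2* and −0.10 for the erythrocyte median, and without mural cells −0.58 for *Mgp*. *Hmmr* was at 0.033 in cells not called cycling. In cells with Y-linked and no *Xist* UMIs *Nrl* was at −0.076, *Cnga1* at −0.031 and *Gfap* at −0.32. The cells left out were those with the most marker UMIs of these types. The cause of the other changes was not tested. Genes under 50 UMIs could not be compared at this depth.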

Other observations

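Among genes on none of the lists, several abundant EC genes were lower in the *Tspan12* KO library. *Lrp8*, a receptor of the LDL receptor family, was at 297 CPM in WT and 103 CPM in KO cells, and *Itm2a*, a membrane protein of barrier vessels, at 821 and 311 CPM. *Bsg*, which encodes basigin, the partner of monocarboxylate carriers, was at 1847 and 866 CPM, and *Spock2*, a matrix proteoglycan, at 378 and 182 CPM. *Kitl*, which encodes stem cell factor, was at 426 and 148 CPM and *Pltp*, a phospholipid transfer protein, at 225 and 106 CPM. *Pglyrp1*, which binds bacterial peptidoglycan, was at 234 and 82.0 CPM and had a damped ratio of −1.20 in microglia as well. *Nfkbid* and *Tnfaip3*, which restrain NF-kB signals, were at 37.9 and 8.76 CPM and at 36.1 and 12.1 CPM. On the higher side, *Gpihbp1*, which anchors lipoprotein lipase on capillaries, was at 23.6 and 56.7 CPM and *Lgals1*, a galectin, at 56.6 and 158 CPM, with a damped ratio of 0.92 in microglia.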
